A study of Mus musculus with 46 samples.

Results

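The histone genes expressed in the hippocampus of P17 mouse pups were followed across 3 rearing conditions. The members were the genes of the deposited expression table whose symbols begin with Hist1h, Hist2h, Hist3h, Hist4h, H1f, H2af or H3f, pseudogene symbols ending in -ps aside, and which had a value above 0 in at least 10 of the 46 libraries. Of 87 such symbols among 52636 genes in the table, 66 met the detection rule and 21 did not. The rule used detection over all 46 libraries without regard to rearing. It does not choose a direction, but Hist1h1c had been singled out with earlier results of these data known. The members fell into 7 linker histone genes, 49 replication-dependent core histone genes, 9 replacement variant genes and 1 antisense RNA, H3f3aos. Just inside the rule were Hist1h2ag and Hist1h3f, detected in 10 libraries each with means of 0.0377 and 0.0340 TPM, and just outside it Hist1h2ao and Hist1h2ap, detected in 9 each with means of 0.0428 and 0.0294 TPM. TPM (a unit scaled so that all genes of a library share 1 total) is a gene's share of a library after correction for transcript length, so levels of different genes can be set side by side on it.

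All pups were Balb/cByj mice of either sex, and RNA came from the left hippocampus at postnatal day 17. LB (limited bedding) litters had a reduced amount of corncob bedding and no nestlet from birth (16 pups, 9 females and 7 males). UPS (unpredictable postnatal stress) pups formed a separate early life stress group (15 pups, 7 females and 8 males). CTL litters had the full amount of bedding and a nestlet (15 pups, 9 females and 6 males). The study's methods give fewer litters than pups for LB and CTL, so pups shared litters. The labels do not name the litters, each pup was treated as an independent sample, and p-values take no account of shared litters.

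Nucleosomes wrap DNA around an octamer of the core histones H2A, H2B, H3 and H4, and linker histones of the H1 family bind where the DNA enters and leaves. Most core histone genes, and several linker genes, lie in clusters, are transcribed during DNA replication, and give messenger RNAs that end in a conserved stem-loop in place of a poly(A) tail. Replacement variants such as H3.3 and H2A.Z are made from ordinary spliced and polyadenylated messenger RNAs throughout the cell cycle, and they are the main supply of new histone in neurons, which no longer divide. The libraries were built with a kit that captures poly(A) RNA, so the levels of stem-loop messages reported here are those of transcripts that passed such a capture.

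Of the members, 42 lie on chromosome 13 and 11 on chromosome 3. The stem-loop was looked for in the annotated transcripts (GENCODE M21, the GRCm38 build, called mm10 in the submitters' notes), and it was found in 3 of 7 linker genes, 28 of 49 core genes and 0 of 9 variants. It is shown for 6 genes whose levels are described here, as DNA letters with 5 bases on either side and the stem-loop in capitals.
Hist1h1c: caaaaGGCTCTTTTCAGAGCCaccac
Hist2h3c1: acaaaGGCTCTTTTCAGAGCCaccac
Hist2h3c2: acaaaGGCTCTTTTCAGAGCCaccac
Hist3h2ba: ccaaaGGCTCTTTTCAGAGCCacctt
Hist1h4i: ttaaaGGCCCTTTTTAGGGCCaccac
Hist1h4h: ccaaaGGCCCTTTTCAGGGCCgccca
The 4 H1, H2B and H3 genes share one stem-loop, and both H4 genes carry forms of their own. The annotated transcripts do not end there. Hist1h1c runs on for 840 bases after the stem-loop, Hist2h3c1 for 1167, Hist1h4i for 330 and Hist3h2ba for 169, whereas Hist1h4h runs on for 46. Among the core genes above the expression minimum of the study, 4 of 4 with a stem-loop had more than 100 bases after it (median 748.5), and among those below the minimum 12 of 24 did (median 104). The Hist1h2bc transcript in the annotation has no stem-loop. Some annotated transcripts without one are short, such as Hist1h2bl (381 bases) and Hist1h4k (312 bases). A stem-loop beyond the annotated end, or with letters outside the fixed pattern searched for, would be missed. The counts therefore do not show that the other genes, H2afx among them, lack it.

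Promoter windows (from 250 bases before to 50 after the start, RefSeq on GRCm38.p6) were matched for 59 of the 66 members. They are shown for 3 genes whose levels differed or that share a window with one that did, with capitals marking the TATA box letters TATAAA, the CCAAT box, the octamer ATTTGCAT and the H1 box AAACACA, each on either strand. Hist1h1c encodes the linker histone H1.2, and its window is at chr13:23738557-23738856 on the plus strand. Hist1h2ac and Hist1h2bc, an H2A gene and an H2B gene, are transcribed in opposite directions from starts 250 bases apart, so the Hist1h2ac window, chr13:23683910-23684209 on the minus strand, takes in the start of Hist1h2bc. H2afz encodes H2A.Z, and its window is at chr3:137864237-137864536 on the plus strand.
Hist1h1c: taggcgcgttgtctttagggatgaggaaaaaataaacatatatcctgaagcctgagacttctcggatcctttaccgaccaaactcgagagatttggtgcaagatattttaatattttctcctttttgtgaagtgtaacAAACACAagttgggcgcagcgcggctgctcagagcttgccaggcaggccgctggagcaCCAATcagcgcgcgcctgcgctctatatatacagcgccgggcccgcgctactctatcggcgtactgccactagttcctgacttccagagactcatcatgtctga
Hist1h2ac: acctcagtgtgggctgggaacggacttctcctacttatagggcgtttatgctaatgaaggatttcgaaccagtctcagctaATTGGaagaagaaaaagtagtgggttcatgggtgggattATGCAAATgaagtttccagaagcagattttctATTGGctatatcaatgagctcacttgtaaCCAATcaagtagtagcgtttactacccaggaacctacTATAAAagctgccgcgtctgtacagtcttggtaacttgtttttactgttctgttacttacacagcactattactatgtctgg
H2afz: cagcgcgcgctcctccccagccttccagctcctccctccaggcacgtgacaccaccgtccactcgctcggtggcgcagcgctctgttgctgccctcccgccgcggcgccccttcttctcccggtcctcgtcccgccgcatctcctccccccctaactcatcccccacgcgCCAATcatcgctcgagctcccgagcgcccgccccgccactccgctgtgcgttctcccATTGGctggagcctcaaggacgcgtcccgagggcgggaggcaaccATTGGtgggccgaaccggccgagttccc
The Hist1h1c window holds 1 CCAAT and 1 H1 box, the Hist1h2ac window holds 1 TATAAA, 3 CCAAT and 1 octamer, and the H2afz window holds 3 CCAAT and no TATAAA. Over the 59 matched members, TATAAA was in 28 windows, CCAAT in 47, the octamer in 9 and the H1 box in 5, of which 4 belong to linker genes. The same letters are in 13.6%, 37.4%, 1.74% and 7.19% of all 32817 promoter windows of that length. A match is a description of the letters and says nothing on binding.

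The replacement variants and the linker gene H1f0 made up most of the histone message captured in these poly(A) libraries (plot of mean levels by class). Stem-loop messages without a poly(A) tail may be missed by that capture, so levels of the classes in the tissue may differ. H3f3b and H3f3a, which encode the same protein H3.3, averaged 209.7 and 180.3 TPM over the 46 libraries, H1f0, the linker of differentiated cells, averaged 126.4 TPM, and H2afz averaged 102.8 TPM. The macroH2A gene H2afy averaged 63.4 TPM, H2afx, which encodes the H2A.X phosphorylated at DNA breaks, 56.5 TPM, H2afj 35.3 TPM, the second H2A.Z gene H2afv 29.3 TPM and the second macroH2A gene H2afy2 23.6 TPM. H3f3a lay between 92.4 and 262.2 TPM. The core genes reached lower levels. Hist3h2ba and Hist3h2a, an H2B and H2A pair, averaged 60.4 and 39.2 TPM, Hist1h2al and Hist1h2bc 14.6 and 14.3 TPM, the H3 gene Hist2h3c1 6.13 TPM, the H2B gene Hist2h2be 5.17 TPM and the H4 gene Hist1h4i 2.68 TPM. Hist1h1c averaged 14.7 TPM. Together the 66 members took between 0.0901% and 0.133% of all TPM in a library.

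The study kept genes whose average reached 3 TPM in 1 or more of the rearing groups, and 18 members passed that minimum (3 linker, 7 core and 8 variant genes). The other 48 did not, and they are described separately. Hist1h4i, at a mean of 2.55 TPM in LB, 2.36 TPM in UPS and 3.15 TPM in CTL, passed only through CTL, so its place among the 18 is tied to its being high in CTL. Of the 48, 39 averaged under 1 TPM and 13 under 0.1 TPM, with means between 0.0188 and 2.27 TPM. Hist2h2bb, Hist2h3c2 and Hist2h4 led the core genes there with 2.27, 2.12 and 2.09 TPM, Hist1h1e, Hist1h1a and Hist1h1b led the linker genes with 0.953, 0.159 and 0.0969 TPM, and H3f3c was the one variant, with 0.445 TPM.

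**Figure D1:**
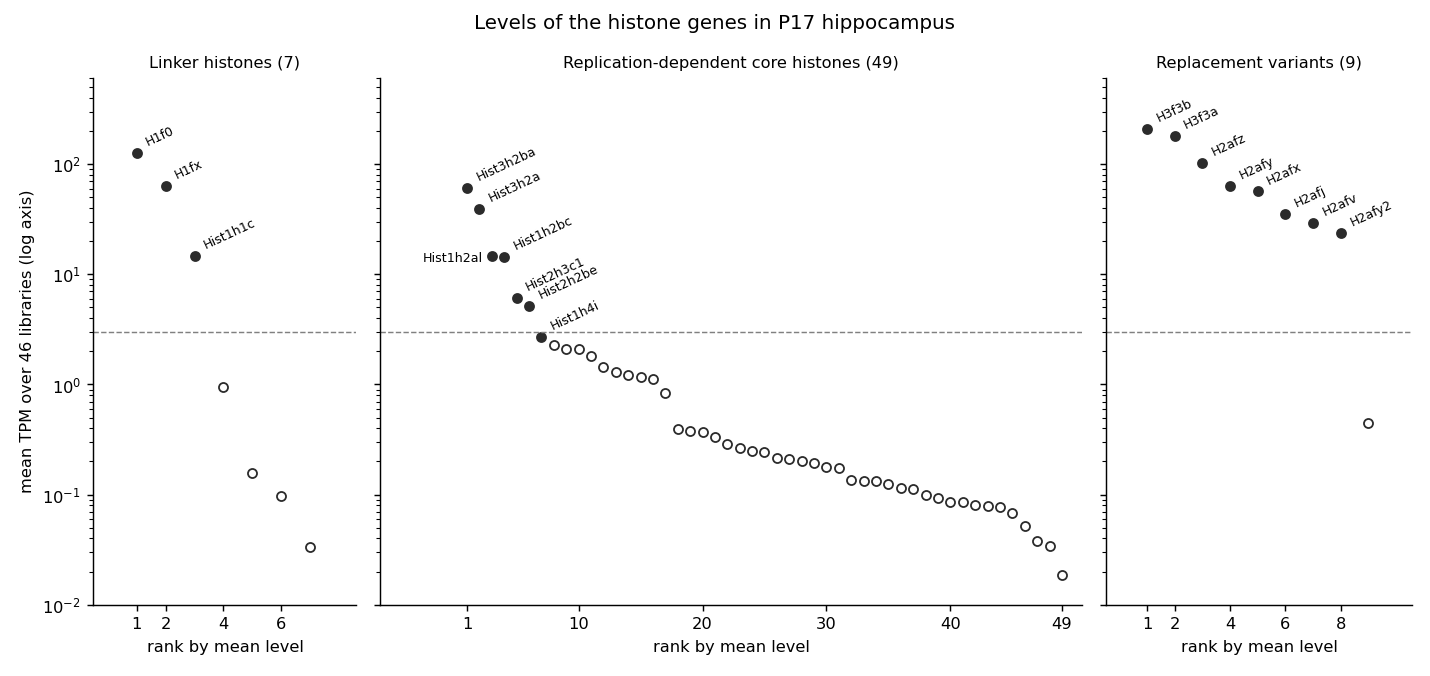
Mean level of each histone gene over 46 libraries (TPM, log axis) against its rank within its class, with linker genes on the left, replication-dependent core genes in the middle and replacement variants on the right. Filled points are the 18 genes that passed the minimum and open points those that did not, and the dashed line is at 3 TPM. All variants but H3f3c lie above 20 TPM, whereas 42 of 49 core genes are open points.

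Some members cannot be read as single genes. Hist1h2al is annotated as a processed pseudogene at chr13:51202727-51203065 on the minus strand, and 65.5% of its 50-base windows occur in Hist2h2aa2, an H2A gene, so its reads and those of the Hist2h2aa genes may be exchanged. The same holds for Hist2h3c1, all of whose 50-base windows occur in the overlapping transcript Gm20634, for Hist2h3c2 (63.5% shared with any other gene), Hist1h4k (71.5%) and H3f3c (73.8%), and for 23 of the 42 core genes under the minimum, over 50% of whose windows are shared. Of the H2afz windows 33.2% are shared, nearly all with Gm8203. For Hist1h2bc the share is 30.1%, mostly with Hist1h2bg, for Hist3h2a 31.5%, with the overlapping gene Trim17, and for Hist3h2ba 22.1%. H1fx, a linker gene, overlaps the antisense gene Gm5577 over 755 bases, and it was listed at 0 in 4 female libraries (LB 4, 6 and 8 and UPS 5) while every other library held between 46.4 and 88.7 TPM. A gene at this level listed at 0 may be a failed estimate, so H1fx is given without a mean.

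Across the 46 libraries, between 21151 and 24708 genes were detected, mitochondrial genes took between 9.52% and 14.2% of the TPM, no pair of libraries was identical (highest correlation 0.987), and read depth per library is unknown because only TPM were deposited. Sex labels held: Xist was at 112.9 TPM or more in all 25 females and at most 0.032 TPM in the 21 males, and the Y-linked Ddx3y was at 0 in all females and at 30.04 TPM or more in males. Female UPS sample 1 carries an LB characteristic beside its UPS title and description, and it was kept as UPS. The library of female UPS sample 2 stood apart, with the highest of all 46 values for 2389 genes and the lowest for 3198 of 13244 genes, where the next library had 807 and 837. The main UPS results on histone genes are therefore given with and without it.

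Histone genes were among those that set this library apart. Hist1h1c stood at 66.8 TPM there, against 8.57 to 19.3 TPM in the other 45 libraries, which is 5.37 times the median of the other UPS females (12.4 TPM). H1f0 was at 283.8 TPM (others 111.0 to 142.5 TPM, 2.26 times that median) and Hist3h2ba at 114.2 TPM (others 48.6 to 71.2 TPM, 2.23 times). Hist1h2al at 5.04 TPM, Hist3h2a at 23.7 TPM and H2afy2 at 16.7 TPM lay below all others, and the other 12 members over the minimum lay within the range. Hist3h2ba and Hist3h2a, which lie side by side on chromosome 11, thus departed in opposite directions. In the same library the summed markers of 5 cell types lay outside the range of the others, with blood at 823.0 TPM (others 236.5 to 615.1 TPM) and microglia at 604.5 TPM (others 359.1 to 492.2 TPM) above it. Below it were oligodendrocyte progenitors at 144.0 TPM (others 233.4 to 324.7 TPM), astrocytes at 1128 TPM (others 1153 to 1580 TPM) and meninges at 94.1 TPM (others 117.4 to 232.4 TPM). Their part in the histone values was not tested.

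**Figure D2:**
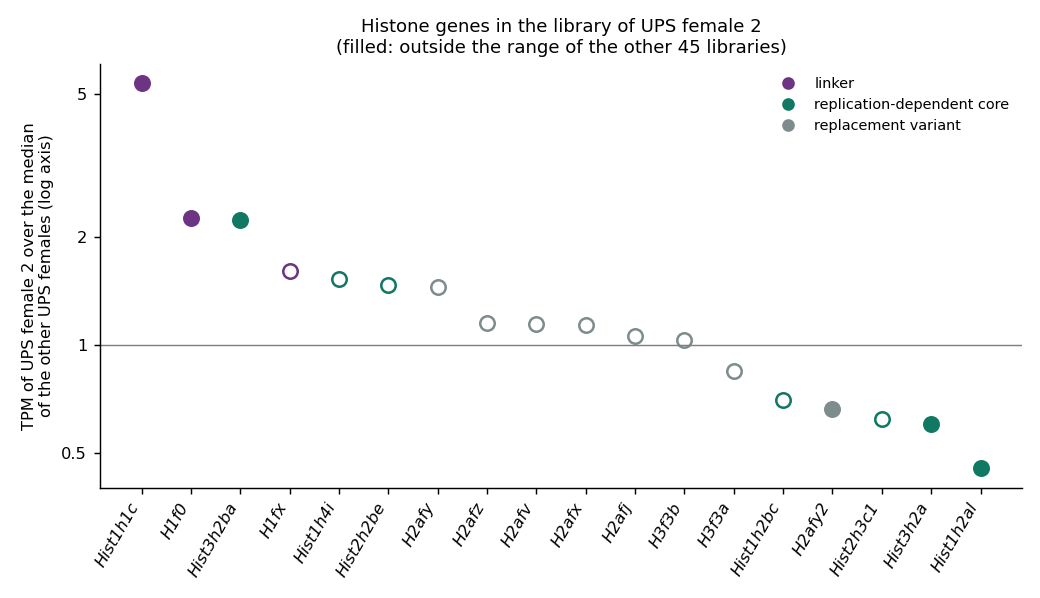
Level of each of the 18 histone genes in female UPS sample 2 divided by the median of the other UPS females (log axis), sorted by that ratio and colored by class. Filled points lie outside the range of the other 45 libraries: Hist1h1c, H1f0 and Hist3h2ba above it and Hist1h2al, Hist3h2a and H2afy2 below it.

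To ask whether limited bedding altered histone message, LB pups were compared with CTL pups, with both sexes given equal weight (limma on log2(TPM + 1), Benjamini-Hochberg adjustment over all 13244 genes tested, threshold 0.05). Differences are on the log2(TPM + 1) scale, which understates changes of low genes. LB pups had less Hist1h1c and less of the core messages Hist1h2bc and Hist1h2al, and slightly more of the variant messages H3f3b and H2afz. Of the 18 members, 3 fell and 2 rose, where 3.84% of all tested genes fell and 3.71% rose. The other 13 members did not pass the test. In no member did the LB and CTL pups separate without overlap.

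Hist1h1c was at 11.8 ± 1.95 TPM in LB pups (SD, n = 16; lowest 9.49, median 11.6, highest 15.9) and at 16.1 ± 1.87 TPM in CTL pups (SD, n = 15; lowest 13.0, median 16.3, highest 19.3). On the log2(TPM + 1) scale, on which all such counts of pups were made, every LB pup lay below the CTL mean of its own sex (16 of 16), and the ranges overlapped between 13.0 and 15.9 TPM. The log2 difference was −0.43 (SE 0.067, 95% interval −0.57 to −0.29), with a limma adjusted p of 0.0011, and a permutation of rearing labels within sex gave an unadjusted p of 2e-05 over 100000 draws, two-sided. In bulk tissue, fewer cells of a type and less RNA per cell cannot be told apart.

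Hist1h2bc, an H2B gene, was at 12.5 ± 3.18 TPM in LB (lowest 7.09, median 12.7, highest 18) and at 16.8 ± 1.97 TPM in CTL (lowest 13.3, median 16.3, highest 21.6), and 14 of 16 LB pups lay below the CTL mean of their sex. The LB values reached from below the CTL range well into it. Its log2 difference was −0.43 (SE 0.097; limma adjusted p = 0.0067; permutation p = 8e-05). Hist1h2al was at 12.6 ± 3.50 TPM in LB (7.18, 12.4 and 19.1 TPM as lowest, median and highest) and at 17.9 ± 4.33 TPM in CTL (9.04, 19.0 and 23.8 TPM), lower in 16 of 16 pups than the CTL mean of their sex. The difference was −0.49 (SE 0.091; limma adjusted p = 0.0026; permutation p = 3e-05). With the TPM of its near-identical copies Hist2h2aa1 and Hist2h2aa2 added in, an alternative chosen after seeing the data, it was −0.43 (limma adjusted p = 0.017).

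H3f3b was at 220.2 ± 23.4 TPM in LB (lowest 182.9, median 216.2, highest 276.7) and 195.5 ± 12 TPM in CTL (lowest 171.0, median 195.6, highest 221.1). It was above the CTL mean of the same sex in 14 of 16 LB pups, with a log2 difference of 0.17 (SE 0.044; limma adjusted p = 0.015; permutation p = 0.00042). H3f3a, the other H3.3 gene, did not pass the test, at 176.8 ± 33.3 TPM in LB and 178.1 ± 49.1 TPM in CTL (log2 difference 0.01, 95% interval −0.25 to 0.28). H2afz was at 108.3 ± 10.05 TPM in LB (lowest 90.4, median 108.7, highest 125.6) and 95.3 ± 8.13 TPM in CTL (lowest 77.7, median 96.9, highest 104.7), higher in 15 of 16 pups (log2 difference 0.18, SE 0.048; limma adjusted p = 0.020; permutation p = 0.00039). H2afv, the second H2A.Z gene, stood at 29.0 ± 2.02 TPM in LB and 29.5 ± 1.5 TPM in CTL (difference −0.03, 95% interval −0.10 to 0.04).

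By class, the 6 core genes over the minimum other than Hist1h4i, which passed it through CTL alone, had negative differences, with a median of −0.24, beside a median of 0.01 over all genes, and 6 of 6 were negative under both other scalings of the libraries. Besides Hist1h2bc and Hist1h2al, none of the core genes passed the test as listed in the table. Hist2h3c1, which encodes H3, was at 5.43 ± 1.70 TPM in LB and 6.56 ± 1.43 TPM in CTL (log2 difference −0.27, limma adjusted p = 0.14). With the TPM of its near-identical copies Hist2h3c2 and Hist2h3b added in, an alternative chosen after seeing the data, it passed (−0.40, limma adjusted p = 0.030), at 7.22 ± 2.33 TPM in LB and 9.43 ± 1.49 TPM in CTL. Of those copies, Hist2h3c2 was called by itself among the genes under the minimum. The sum left out Gm20634, the transcript that overlaps the whole of Hist2h3c1 on the same strand. Whether reads exchanged with Gm20634 affect the summed difference was not tested. Hist2h2be, which encodes an H2B studied in mouse olfactory neurons, was at 4.69 ± 0.922 TPM in LB and 5.60 ± 0.955 TPM in CTL (−0.20, limma adjusted p = 0.12), and Hist1h4i was at 2.55 ± 0.828 TPM in LB and 3.15 ± 0.751 TPM in CTL (−0.24, limma adjusted p = 0.20). The pair Hist3h2ba (58.8 ± 7.49 TPM in LB and 60.7 ± 5.31 TPM in CTL) and Hist3h2a (38.0 ± 4.80 and 40.1 ± 2.54 TPM) had differences of −0.04 and −0.09.
The variants divided, with 4 of 8 differences below 0 and a median of −0.01. Apart from H3f3b and H2afz, the closest to the threshold was H2afy2, the macroH2A gene, at 24.7 ± 3.37 TPM in LB and 22.5 ± 2.69 TPM in CTL (0.13, limma adjusted p = 0.23). H2afx (−0.03), H2afy (−0.03), H2afj (−0.07) and, among linker genes, H1f0 (122.7 ± 6.29 TPM in LB and 124.8 ± 7.63 TPM in CTL, −0.02, 95% interval −0.07 to 0.03) did not pass. H1fx, leaving aside the 3 LB libraries listed at 0, ranged from 47.4 to 88.7 TPM in LB and from 54.7 to 84.6 TPM in CTL. Summed over each class, the core genes came to 153.1 ± 17.9 TPM in LB and 174.5 ± 12.7 TPM in CTL, and the variants to 715.8 ± 48.9 TPM in LB and 680.5 ± 63.7 TPM in CTL. These sums were not tested.

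**Figure D3:**
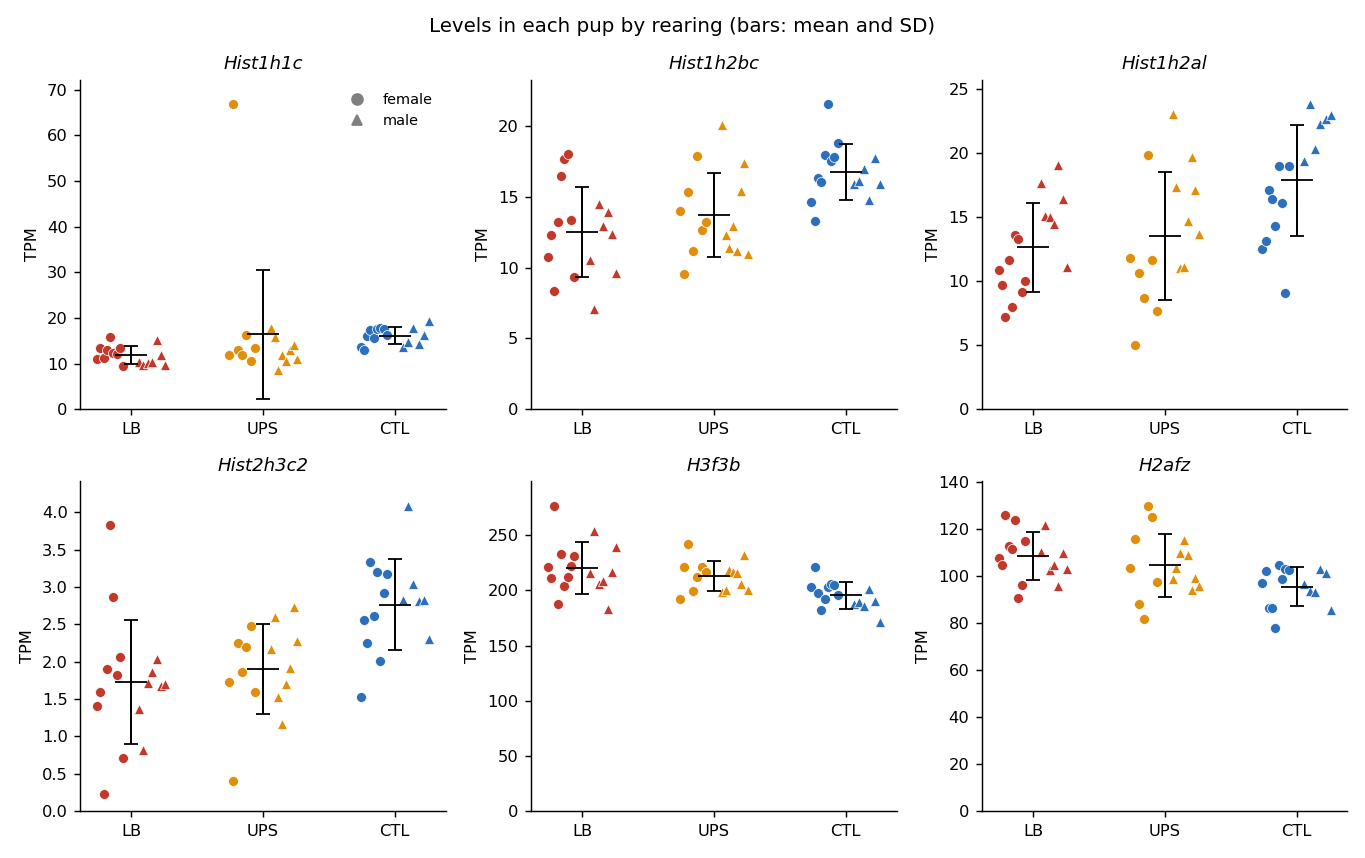
TPM of 6 histone genes in every pup, grouped by rearing (LB, UPS, CTL from left to right), with circles for females, triangles for males, and bars for the mean and SD, and each vertical axis starts at 0. Hist1h1c, Hist1h2bc and Hist1h2al sit lower in LB than in CTL pups with overlap, H3f3b and H2afz sit slightly higher, and 1 UPS female reaches 66.8 TPM of Hist1h1c.

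The 5 called members kept their calls in all 31 fits that left out 1 pup. When all 46 libraries entered one fit, Hist1h1c no longer passed (limma adjusted p = 0.062), and with female UPS sample 2 left out of that fit it did (limma adjusted p = 0.00083).

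The same differences were looked for in each sex. A test of whether the LB effect differed between the sexes called 0 members and 0% of all genes (limma; 293 of 13244 genes and 0 members had an unadjusted p under 0.05). Hist1h1c differed by −0.35 between LB and CTL females (95% interval −0.52 to −0.18) and by −0.51 between LB and CTL males (95% interval −0.73 to −0.28), and the interaction was 0.15 with a 95% interval of −0.12 to 0.43. Hist1h2bc differed by −0.37 in females and by −0.49 in males, Hist1h2al by −0.50 and −0.48, H3f3b by 0.14 and 0.21, and H2afz by 0.20 and 0.16. The direction of these 5 was thus shared by females and males. Within a single sex, none of the members passed the limma test after adjustment over all genes, where 0 genes passed in females and 13 in males (7 members in females and 6 in males had an unadjusted p under 0.05).

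UPS pups were then compared with the same CTL pups, so both comparisons share their controls. UPS pups had more H3f3b and less Hist1h2al and Hist1h2bc. Of the 18 members, 1 rose and 2 fell, where 5.59% of all tested genes rose and 4.44% fell. Over all genes, 741 were higher and 588 lower, and with another scaling of the libraries (median of ratios) 718 were higher and 903 lower, with the same 3 members called. Without female UPS sample 2, Hist1h1c joined the members that fell, which then numbered 3.

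H3f3b was at 212.8 ± 13.6 TPM in UPS (n = 15; lowest 192.1, median 215.4, highest 242.0), above the mean of 195.5 TPM in CTL, and 13 of 15 UPS pups exceeded the CTL mean of their sex (log2 difference 0.13, SE 0.033; limma adjusted p = 0.012; permutation p = 0.00029). Hist1h2al was at 13.5 ± 5.03 TPM in UPS (lowest 5.04, median 11.8, highest 23.0), lower in 13 of 15 pups than the CTL mean of their sex (log2 difference −0.50, SE 0.131; limma adjusted p = 0.016; permutation p = 0.00075). With its near-identical copies added in, the difference was −0.38 and did not pass (limma adjusted p = 0.060). Hist1h2bc was at 13.7 ± 2.97 TPM in UPS (lowest 9.56, median 13.0, highest 20.1), lower in 12 of 15 pups (−0.29, SE 0.084; limma adjusted p = 0.029; permutation p = 0.0025). All of these ranges overlap those of the CTL pups. Without female UPS sample 2 all 3 calls remained, with differences of 0.13 for H3f3b (limma adjusted p = 0.011), −0.42 for Hist1h2al (limma adjusted p = 0.017) and −0.25 for Hist1h2bc (limma adjusted p = 0.033). The Hist1h2bc call was lost without CTL male 6 (limma adjusted p = 0.054) and in 6 other settings.

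Hist1h1c was at 16.4 ± 14.1 TPM in UPS pups, with a lowest value of 8.57, a median of 12.9 and a highest of 66.8 TPM. The median lay below that of CTL pups (16.3 TPM), and 12 of 15 UPS pups lay below the CTL mean of their sex, while 1 female lay far above every other pup. The log2 difference was −0.15 (SE 0.165, 95% interval −0.49 to 0.19; limma adjusted p = 0.59; permutation p = 0.44). Without female UPS sample 2 it was −0.31 (limma adjusted p = 0.010; permutation p = 0.00088), with 12.8 ± 2.49 TPM in the 14 remaining UPS pups (lowest 8.57, median 12.4, highest 17.8). The same omission raised the number of genes called over the whole table to 2169, where 1329 were called with all pups. H2afz was at 104.3 ± 13.2 TPM in UPS (0.12, 95% interval 0.00 to 0.24; limma adjusted p = 0.17, and 0.11 with a limma adjusted p of 0.19 without that female), and H1f0 at 131.9 ± 42.3 TPM with all UPS pups and 121.1 ± 4.91 TPM without that female.

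The same 6 core genes had negative differences with all UPS pups, with a median of −0.05 where the median of all genes was −0.00. This count rested on single libraries. Without female UPS sample 2 it was 4 of 6 (Hist3h2a at 0.01 and Hist2h3c1 at 0.02), with a median of −0.09, and it was 4 to 6 when 1 pup was left out. Hist1h4i came closest to the threshold among those not called (2.36 ± 0.974 TPM in UPS and 3.15 ± 0.751 TPM in CTL, −0.35, limma adjusted p = 0.094). Hist2h3c1 was at 6.43 ± 1.37 TPM in UPS and 6.56 ± 1.43 TPM in CTL (−0.01, 95% interval −0.23 to 0.21). Summed core genes came to 162.3 ± 19.7 TPM in UPS and summed variants to 707.1 ± 62.6 TPM (161.0 ± 19.6 and 706.6 ± 65.0 TPM without female UPS sample 2), again without a test. In the test of the interaction of UPS with sex, 0 members and 0% of all genes were called (488 genes and 0 members had an unadjusted limma p under 0.05).

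**Figure D4:**
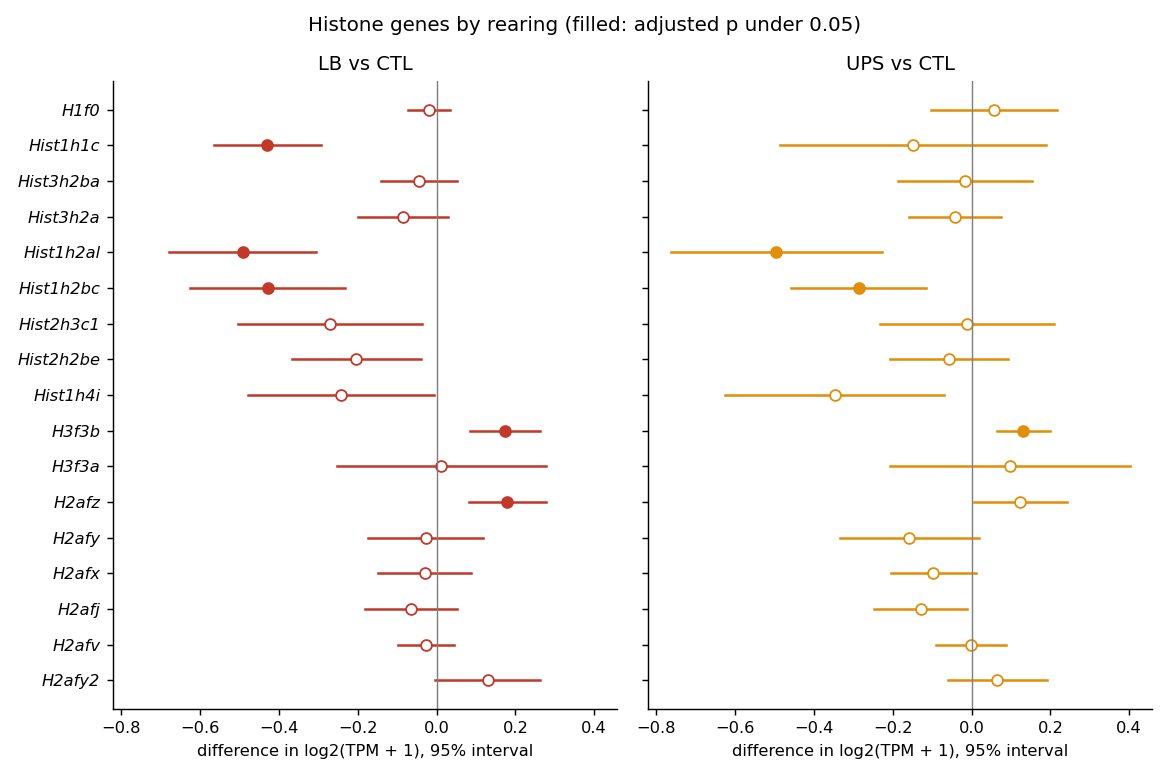
Difference in log2(TPM + 1) from CTL with its 95% interval for 17 histone genes (H1fx, listed at 0 in some libraries, is not drawn), for LB on the left and UPS on the right, with filled points at an adjusted p under 0.05. The points of the core genes lie below 0 in both panels with all pups included, Hist1h4i having passed the minimum through CTL alone, and the interval of Hist1h1c in UPS reaches from −0.49 to 0.19.

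LB and UPS pups were also compared directly. No member was called in LB against UPS (limma), where 0.0453% of all genes were called, and 1 member (with 1680 of 13244 genes) had an unadjusted limma p under 0.05. That member was Hist2h3c1, at 5.43 ± 1.70 TPM in LB and 6.43 ± 1.37 TPM in UPS (log2 difference −0.26, 95% interval −0.49 to −0.03; limma adjusted p = 0.34). Hist1h1c differed by −0.28 (95% interval −0.61 to 0.05; limma adjusted p = 0.48), and without female UPS sample 2 by −0.12 (limma adjusted p = 0.51). Hist1h2al differed by 0.00 (95% interval −0.26 to 0.26), Hist1h2bc by −0.14 (−0.37 to 0.09), H3f3b by 0.04 (−0.05 to 0.14) and H2afz by 0.06 (−0.06 to 0.17). These intervals do not show that LB and UPS pups were alike.

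The 48 members under the minimum were tested among all 25565 genes detected in at least 10 libraries. Most of their LB differences were negative, as 35 of 42 core genes and 4 of 4 linker genes lay below 0, beside 50.9% of all detected genes, and the core median was −0.06. With all UPS pups, 33 of 42 core genes lay below 0 in UPS, beside 53.2% of all detected genes, with a median of −0.05. That count is not given without female UPS sample 2. Of the 42 core genes, 23 share over 50% of their 50-base windows with other genes, so their signs are not separate observations. The median number of genes detected in a library was 23146 in CTL, 22757 in LB and 22553 in UPS. Whether that difference bears on the signs of such low genes was not tested. In LB, 1 member was called lower, where 1.64% of all genes were, and in UPS 3 members were, where 1.89% of all genes were. The same 3 were called in UPS without female UPS sample 2. None was called higher in either, with 1 in LB and 0 in UPS at a positive difference and an unadjusted limma p under 0.05. In LB against UPS none was called, where 0.0235% of all genes were, and 4 had an unadjusted p under 0.05.

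Hist2h3c2, an H3 gene near Hist2h3c1 on chromosome 3, was lower in both. It was at 1.72 ± 0.832 TPM in LB (lowest 0.226, median 1.71, highest 3.83), 1.90 ± 0.599 TPM in UPS (lowest 0.395, median 1.91, highest 2.72) and 2.76 ± 0.608 TPM in CTL (lowest 1.53, median 2.82, highest 4.09). In LB 14 of 16 pups and in UPS 15 of 15 pups lay below the CTL mean of their sex. The log2 difference was −0.53 in LB (SE 0.135; limma adjusted p = 0.027) and −0.41 in UPS (SE 0.111; limma adjusted p = 0.033). The LB call held in 29 of 31 fits that left out 1 pup (all but those without LB male 2 and CTL male 3), and the UPS call in 25 of 30.

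The H4 genes Hist1h4k and Hist1h4h were lower in UPS. Hist1h4k was at 0.765 ± 0.637 TPM in UPS (0 to 1.77) and 1.64 ± 0.821 TPM in CTL (0.323 to 3.06), lower in 13 of 15 pups (−0.63, limma adjusted p = 0.043), and Hist1h4h at 0.505 ± 0.389 TPM in UPS (0 to 1.12) and 1.19 ± 0.739 TPM in CTL (0 to 2.71), lower in 15 of 15 (−0.55, limma adjusted p = 0.042). Both calls were close to the threshold: Hist1h4k was called in 11 of 30 fits that left out 1 pup, and Hist1h4h in 15 of 30. In LB these genes were at 0.966 ± 0.630 TPM and 0.810 ± 0.493 TPM, with differences of −0.45 (limma adjusted p = 0.16) and −0.27 (limma adjusted p = 0.42).

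Of the members not called, 4 had an unadjusted p under 0.01. Hist1h2be, an H2B gene whose transcript overlaps Hist1h1e over 496 bases, was at 1.19 ± 0.586 TPM in LB and 1.71 ± 0.421 TPM in CTL (−0.34, limma adjusted p = 0.11). Hist1h2ac, the H2A gene that shares its promoter region with Hist1h2bc, was at 0.260 ± 0.194 TPM in LB and 0.468 ± 0.184 TPM in CTL (−0.23, limma adjusted p = 0.069), while Hist1h2bc, whose message was far more abundant, passed. Hist1h1a, the linker H1.1, was at 0.0606 ± 0.0934 TPM in LB and 0.211 ± 0.174 TPM in CTL (−0.18, limma adjusted p = 0.10). Hist1h3d, an H3 gene, was at 0.236 ± 0.192 TPM in UPS and 0.480 ± 0.244 TPM in CTL (−0.27, limma adjusted p = 0.062). How many reads stand behind such levels is unknown.

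The highest members under the minimum in each class did not pass in either stress group, Hist2h3c2 aside. Hist2h2bb was at 1.97 ± 0.722 TPM in LB, 2.36 ± 1.09 TPM in UPS and 2.49 ± 0.986 TPM in CTL, and Hist2h4 at 1.91 ± 0.683 TPM in LB, 2.03 ± 0.582 TPM in UPS and 2.35 ± 0.434 TPM in CTL. The linker Hist1h1e was at 0.793 ± 0.405 TPM in LB, 0.952 ± 0.478 TPM in UPS and 1.13 ± 0.419 TPM in CTL, and Hist1h1b at 0.0523 ± 0.104 TPM in LB, 0.108 ± 0.118 TPM in UPS and 0.134 ± 0.158 TPM in CTL. H3f3c was at 0.427 ± 0.287 TPM in LB, 0.478 ± 0.453 TPM in UPS and 0.433 ± 0.348 TPM in CTL.

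The variants H2afx and H2afj were lower in females than in males. Of the 18 members, 1 was higher and 4 were lower in females (limma, all 46 libraries), where 27.5% of all genes were higher and 22.6% lower. The members' share is near or below that of all genes in each direction.

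H2afx was at 48.0 ± 6.82 TPM in 25 females and 66.6 ± 5.11 TPM in 21 males (log2 difference −0.48, limma adjusted p = 2.04e-11). The 23 females other than those numbered 9 lay between 41.8 and 51.3 TPM and the males between 57.1 and 74.7 TPM, without overlap. Both females numbered 9, however, lay within the male range, at 68.0 TPM (LB) and 69.4 TPM (CTL), although they had female levels of Xist (137.8 and 112.9 TPM) and Ddx3y at 0. H2afx level thus did not follow sex in these 2 pups. The deposited table gives these 2 libraries an earlier name in the form used for males, with numbers that no male of their group now holds (6 in LB and 2 in CTL), and the counts of females and males in the study's methods follow that earlier naming. How libraries were grouped for preparation or sequencing is not given in the sources used here, so sex and a set of libraries cannot be told apart.

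H2afj was at 31.0 ± 4.28 TPM in females and 40.6 ± 3.55 TPM in males (−0.40, limma adjusted p = 3.78e-09), with the number 9 females at 36.5 TPM (LB) and 43.4 TPM (CTL). Hist1h2al was at 12.2 ± 3.98 TPM in females and 17.5 ± 4.10 TPM in males (−0.55, limma adjusted p = 9.08e-06). H1f0 was at 132.9 ± 32.0 TPM in females and 118.7 ± 3.99 TPM in males (0.15, limma adjusted p = 0.020), and the female SD includes the 283.8 TPM of UPS sample 2. H1fx was called lower in females as well (limma adjusted p = 0.015), where 4 of 25 libraries were listed at 0 and the number 9 females stood at 88.7 and 82.2 TPM, against 66.2 to 84.6 TPM in males. Hist1h1c did not pass (0.17, 95% interval −0.06 to 0.40), and neither did H3f3b (0.05, −0.02 to 0.12) or H2afz (0.02, −0.07 to 0.11).

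**Figure D5:**
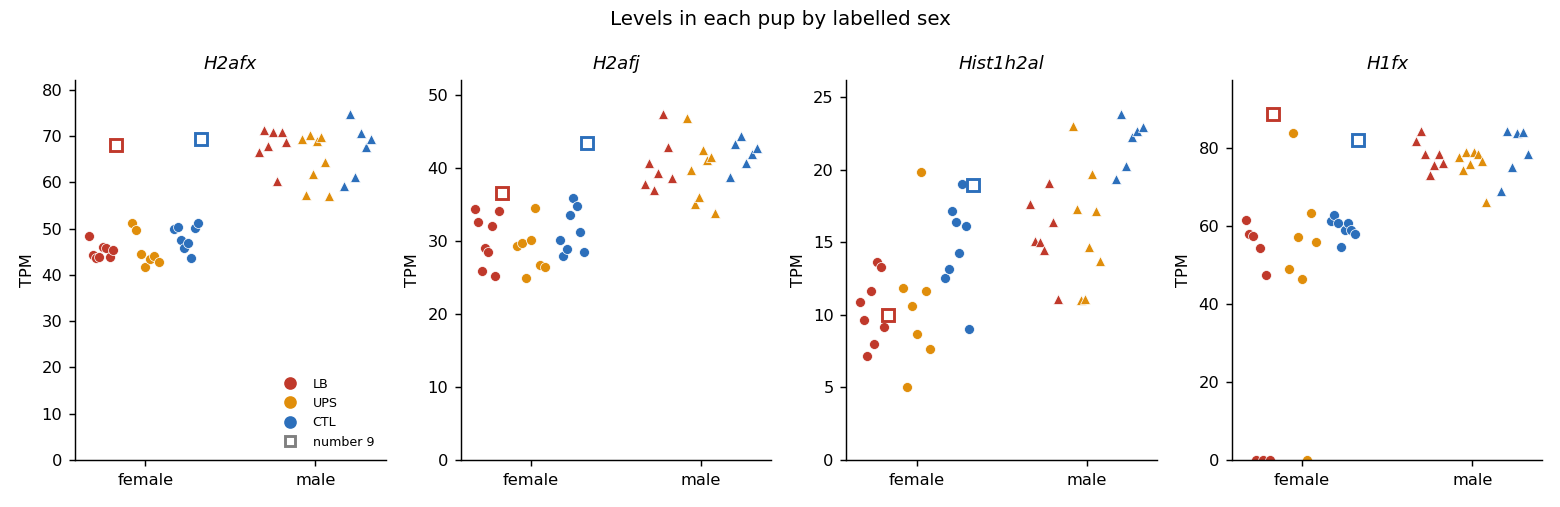
TPM of H2afx, H2afj, Hist1h2al and H1fx in every pup by labelled sex, females left of males, colored by rearing, with open squares for the females numbered 9 and axes starting at 0. For H2afx, 23 females lie between 41.8 and 51.3 TPM and both squares lie among the males.

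The genes that make, process and deposit histones were examined next, from lists chosen with earlier results known. Their counts stand beside 3.71% of all genes higher and 3.84% lower in LB, and 5.59% higher and 4.44% lower in UPS, and were not tested against them. The UPS values of these lists include female UPS sample 2 and are not given without it. In that library 3 list sums lay outside the other 45 libraries. These were chaperones (2645 TPM, others 1915 to 2635), cell cycle genes (246.3 TPM, others 266.2 to 367.3) and H2A.X genes (425.9 TPM, others 317.7 to 401.9). In the list for histone transcription and the processing of stem-loop ends, 13 of 15 genes were tested, and 2 rose in LB and 3 in UPS, with none lower. Lsm11, a subunit of the U7 particle that cuts histone messages after the stem-loop, was at 99.9 ± 22.0 TPM in LB, 92.4 ± 14.0 TPM in UPS and 73.2 ± 11.6 TPM in CTL (log2 differences 0.43 in LB, limma adjusted p = 0.0072, and 0.32 in UPS, limma adjusted p = 0.0080). Cpsf2, of the same cleavage machinery, was at 37.4 ± 3.05 TPM in LB, 37.9 ± 2.77 TPM in UPS and 34.5 ± 2.34 TPM in CTL (0.12, limma adjusted p = 0.022, and 0.15, limma adjusted p = 0.0057), and Casp8ap2, a factor of histone locus bodies, rose in UPS (10.4 ± 1.09 TPM, against 8.92 ± 1.19 TPM in CTL; 0.23, limma adjusted p = 0.0043). The list medians were 0.02 in LB and 0.05 in UPS, beside 0.01 and −0.00 over all genes.

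Among histone chaperones and deposition factors, 27 of 30 genes were tested, with 3 higher in LB and 4 in UPS and none lower. Those in LB were Nap1l4, an H2A-H2B chaperone (120.1 ± 6.51 TPM in LB and 111.8 ± 8.16 TPM in CTL, 0.11, limma adjusted p = 0.023), nucleolin Ncl (104.8 ± 10.1 and 97.1 ± 9.18 TPM, 0.12, limma adjusted p = 0.045) and Hira, which deposits H3.3 (61.6 ± 3.93 and 57.4 ± 3.84 TPM, 0.11, limma adjusted p = 0.048). In UPS they were Ncl (0.18), Nap1l1 (0.15), nucleophosmin Npm1 (0.16) and Atrx (0.24), the partner of Daxx in H3.3 deposition, with limma adjusted p between 0.0049 for Ncl and 0.040 for Atrx. These changes were small, and the list medians were 0.06 in LB and 0.07 in UPS.

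Cell cycle and replication genes, during whose activity the clustered histone genes are normally transcribed, were higher where they were called. Of 30 listed, 18 were tested, and 3 rose in LB and 2 in UPS, with none called lower (1 in each had a negative difference at an unadjusted limma p under 0.05). Topoisomerase Top2a was at 7.28 ± 1.75 TPM in LB and 5.11 ± 0.985 TPM in CTL (0.42, limma adjusted p = 0.010), the cyclin Ccnd2 at 103.2 ± 12.3 and 90.2 ± 7.58 TPM (0.19, limma adjusted p = 0.024), and Rrm2, of ribonucleotide reductase, at 5.02 ± 0.876 and 4.05 ± 0.644 TPM (0.25, limma adjusted p = 0.039). In UPS Rrm2 (0.39, limma adjusted p = 0.011) and the replication clamp Pcna (0.14, limma adjusted p = 0.025) rose. The list medians were 0.12 in LB and 0.10 in UPS.

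Among high mobility group and other chromatin architecture genes, 14 of 15 were tested, with 2 higher in LB and 6 in UPS and none lower. Hmgb3 was at 28.3 ± 5.72 TPM in LB, 28.4 ± 5.14 TPM in UPS and 22.7 ± 3.94 TPM in CTL (0.31, limma adjusted p = 0.018, and 0.33, limma adjusted p = 0.0049), and Hmgb2 rose by 0.27 in LB and 0.33 in UPS. In UPS Hmgb1 (0.19), Cbx3 (0.15) and Parp1 (0.12) were among the others that rose. Of 12 genes that act on H2A.X or on H2A ubiquitin, Rnf2, an H2A ubiquitin ligase, was higher in LB (0.14, limma adjusted p = 0.035) and UPS (0.21, limma adjusted p = 0.0057), and its partner Ring1 was lower in UPS (−0.20, limma adjusted p = 0.0069). Mdc1, which binds phosphorylated H2A.X, had the next smallest p in LB (0.13, limma adjusted p = 0.16). No gene of these 5 lists was called in LB against UPS (limma; 13 of 84 tested had an unadjusted p under 0.05).

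Markers of cell types moved beside the histone genes. All 9 mature oligodendrocyte markers fell in LB (median −1.14), and 8 of 9 fell in UPS (median −0.65, with Mobp at a limma adjusted p of 0.054), and their summed level ranged from 448.4 to 2403 TPM in LB (median 1227), 844.0 to 2908 TPM in UPS (median 1821) and 1157 to 3687 TPM in CTL (median 2350). Of 6 neuroblast markers tested, 3 rose in LB (Dcx, Sox11 and Draxin) and 3 in UPS (Dcx, Sox11 and Neurod1). Of 6 genes listed for oligodendrocyte progenitors, Olig2 and Sox10, which the study names among regulators of abnormal myelination, fell in LB. The other 4, Pdgfra and Cspg4 among them, were not called in LB, and none of the 6 was called in UPS. C1ql2 was lower in both among 5 granule neuron markers, S100b fell and Aqp4 rose in LB among 6 astrocyte markers, and blood markers rose (Hbb-bt in LB, Hba-a1, Hba-a2 and Hbb-bs in UPS, of 5). Microglia (0 of 7), endothelial (0 of 5), meningeal (0 of 7) and choroid plexus (0 of 4) markers were not called in either by limma (7 of these 23 in LB and 4 in UPS had an unadjusted p under 0.05). The UPS calls of these markers include female UPS sample 2, where the blood and microglia sums were the highest of all libraries. They are not given without it. The part of these cell types in the histone differences was not tested.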

How the data were processed

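Poly(A) RNA-seq libraries from 46 pups (left hippocampus, P17) were analyzed. The kit was the KAPA mRNA HyperPrep kit, which captures poly(A) RNA. The authors trimmed reads, aligned them to mm10 with HISAT2 and deposited TPM, estimated with StringTie (tool versions: not given in the sources used here). Tables of the study's own comparisons (log2 fold change, p and adjusted p) were not used. TPM are not counts, so depth is unknown and no count model was fitted.

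Pairwise fits used limma 3.58.1 (R 4.3.3) on log2(TPM + 1) with 4 means of rearing by sex, a variance trend, and Benjamini-Hochberg adjustment over 13244 genes whose average reached 3 TPM in 1 or more of the rearing groups. One gene was left out because a cell holds text. Members under that minimum were tested over 25565 genes with a TPM above 0 in at least 10 libraries, and sex with 6 means over all libraries. Single called members were also tested with 100000 permutations within sex. The LB against CTL fit recovered large known differences in simulated data. Those data had independent pups, no shared litters and no outlying library, so they say nothing on such features.

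Members, gene lists and alternatives were chosen with earlier results of these data known. Values are given for every member over the minimum, and for those under it if among the 3 highest of their class or at an unadjusted p under 0.01. Of each pathway list, the 2 genes with the smallest p per stress comparison and all called genes are named, except 1 that is not reported here. Alternatives changed the pseudocount, scaling, minimum, model, library weights and libraries, and left out each pup in turn. Sequences were read from GENCODE M21 transcripts and RefSeq promoters (GRCm38.p6) with Python 3.11.15.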

Additional observations from a re-analysis of the deposited data

Results flagged for a closer look

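Of 108 sets examined (18 members in 6 groups of rearing by sex), 12 held a pup whose gap to its nearest neighbor was large for the range of its group. For independent, normally distributed values chance gives about 1 in 20. The members were read from the same libraries, so the 12 cannot be weighed against that rate. Female UPS sample 2 gave 5 of the 12. It was the highest UPS female for Hist1h1c (66.8 TPM), H1f0 (283.8 TPM) and Hist3h2ba (114.2 TPM), and the lowest for Hist3h2a (23.69 TPM) and H2afy2 (16.66 TPM). The females numbered 9 gave 3 of them, being the highest CTL female for H2afx (69.35 TPM) and H1fx (82.18 TPM) and the highest LB female for H2afx (67.97 TPM). The other 4 were LB female 6 for H3f3a (highest, 230.0 TPM), LB female 5 for Hist3h2ba (highest, 68.29 TPM), UPS male 8 for H1fx (lowest, 66.23 TPM) and LB male 5 for H2afy2 (lowest, 18.4 TPM).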

How the results depend on the processing

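Single members kept their direction in every alternative of a comparison that called them, and no called difference reversed. Differences that were not called could change sign. Hist1h1c in UPS was at −0.15 with both sexes and 0.02 with females only. Hist1h2al in LB against UPS was at 0.003, and at −0.07 without female UPS sample 2. In LB against CTL, 5 members were called in each fit that left out 1 pup (5 to 5), 6 with near-identical copies summed (Hist2h3c1 added), 0 with females only and 0 with males only. In UPS against CTL, 3 were called, 2 to 4 with 1 pup left out, 0 without sex in the model, 6 with library weights (2 higher and 4 lower, Hist1h1c among them), 2 with copies summed (Hist1h2al lost), 0 with females only and 0 with males only. Under the minimum, LB against CTL gave 1 member, 2 with library weights, 0 with females only, with males only and without the females numbered 9, and 0 to 2 with 1 pup left out (0 without LB male 2 or CTL male 3). UPS against CTL gave 3 there, 1 with a pseudocount of 0.1, 0 without sex in the model, 0 with females only and with males only, 1 without CTL female 9, 1 without female UPS sample 1, and 0 to 4 with 1 pup left out (0 without UPS male 3 or CTL male 6). LB against UPS gave 0 in each of the alternatives run (limma). Between females and males, 5 members were called, and 8 when the females numbered 9 were set among the males (3 higher and 5 lower). With sample number as a replicate block, LB against CTL gave 5, UPS against CTL 2 (Hist1h2bc lost, limma adjusted p = 0.061), and under the minimum 1 in LB and 1 in UPS. Most same-numbered pups of the same sex in a stress group and in CTL showed little shared deviation (27 pairs, correlations −0.19 to 0.33, 3 above 0.1, 4 best with their own number). The highest, 0.33, was that of the LB and CTL females numbered 9, whose H2afx levels lay among those of the males. The next was 0.17, for the UPS and CTL males numbered 5. Females and males of the same number and rearing were not compared, so whether the numbers mark litters is not known. Over all genes, LB against CTL gave 999 calls, with 677 to 1581 when 1 pup was left out (1581 without LB male 5), 579 without sex in the model, 1676 with library weights, 0 in females and 13 in males. UPS against CTL gave 1329, with 913 to 2169 when 1 pup was left out, 254 without sex, 2626 with library weights, 12 in females and 16 in males. The causes were not tested. Since only TPM were deposited, counting error of the low members is not known.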
